A study of Mus musculus with 8 samples.

Results

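The genes described here are the translation initiation factors of the mouse and the kinases of the initiation factor eIF2, followed in the cerebral cortex of embryos at E18.5. They were chosen by symbol: every row whose symbol starts with Eif and a digit from 1 to 6, with 10 pseudogene rows and the 2 helicase genes Eif4a2 and Eif4a3 left out, which gave 54 of the 55487 rows measured. The 8 libraries fall into 2 groups of 4. Controls 1, 3 and 4 carried Upf2 fl/fl and control 2 carried Upf2 fl/+, all without a recombinase, and the 4 libraries labelled Upf2cKO came from Upf2 fl/fl;Emx1-Cre embryos. Every library therefore carried at least 1 floxed Upf2 allele. UPF2 belongs to the machinery of nonsense-mediated mRNA decay (NMD), which degrades transcripts with a premature stop codon. Emx1-Cre is active in the progenitors of the dorsal forebrain, so that interneurons, microglia, vessels and blood in the same tissue keep Upf2 unrecombined.

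Translation starts when eIF2 brings the initiator tRNA to the small ribosomal subunit, eIF1, eIF1A and eIF3 hold that complex ready, and the cap-binding eIF4 factors load it on an mRNA to scan for the start codon. The guanine nucleotide exchange factor eIF2B then recharges eIF2 for the next round. Under stress, 4 kinases phosphorylate eIF2, which turns it into an inhibitor of eIF2B, lowers general translation and favours the transcription factor ATF4, a program called the integrated stress response. In the developing cortex protein synthesis is tuned as progenitors become neurons, and inherited defects of eIF2B cause a childhood disease of white matter.

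From 96.6 M to 156.0 M reads per library were assigned to genes, so 1 read was worth 0.0064 to 0.0104 CPM (counts of reads, scaled so that every library has the same sum). Upf2 itself stood at 60.0, 58.1, 68.5 and 60.7 CPM across control replicates 1 to 4, against 135, 139, 142 and 154 CPM across Upf2cKO replicates 1 to 4; this whole-gene level was higher, not lower, in the Upf2cKO libraries (adjusted p = 3.35e-08, limma), and since exons outside the floxed part count too, it is no test of the deletion or of the labelling. The 9 markers of cortical neurons and progenitors examined, Emx1, Neurod6 and Tbr1 among them, were all detected, with 7 lower and 1 higher in Upf2cKO libraries. Summed over their lists, microglial markers ranged from 44.0 to 63.1 CPM in controls and from 120 to 177 CPM in Upf2cKO libraries, and erythroid markers from 145 to 170 CPM and from 82.3 to 120 CPM. Upf2cKO 1 stood apart in mature neuron markers, whose sum was 2567 CPM there, from 1873 to 2025 CPM in the other Upf2cKO libraries and from 1910 to 2090 CPM in controls. Camk2a was 339 CPM in it and 41.5 to 45.2 CPM in the other Upf2cKO libraries. In whole tissue, fewer cells of a type and less RNA per cell cannot be told apart. Whether embryos of a group shared a litter is not labelled, and the p-values speak for the spread among these libraries only.

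Of the 54 genes, 51 passed the filter on low values (at least 0.5 CPM in at least 4 libraries) and were tested with limma, with p-values adjusted over all 16573 genes that passed and a threshold of 0.05. Among the 51, 15 were higher in Upf2cKO libraries (29.4%) and 16 were lower (31.4%), where the whole set of tested genes held 36.7% higher and 26.3% lower. Without Upf2cKO 1, 16 were higher and 15 lower. Most initiation genes are abundant. Among 8107 protein-coding genes with a mean of at least 20 CPM, 33.9% were higher and 33.9% lower, with a median log2 change of -0.018. The median log2 change was 0.007 for the initiation genes and 0.04 for all genes. The groups did not overlap in 16 genes that were higher and 13 that were lower, 56.9% of the 51, beside 56.6% of all tested genes. As a family the initiation genes thus moved about as often as other genes, and the direction varied by role. All 5 eIF2B genes and 3 of 4 eIF2 kinases were higher. Lower were 8 of 13 eIF3 genes and 3 of 5 genes whose symbols start with Eif1. The helicase gene Eif4a1 and its cofactors Eif4b and Eif4h were lower too. None of these groups held a gene past the threshold in the other direction. Scaled by the upper quartile, which lowers the Upf2cKO values, the counts became 13 higher and 21 lower among the 51 and 5179 and 5787 among all genes. In TPM (the same after correction for gene length) the filter kept a larger set, 52 initiation genes and 19986 genes in all. Of these 52, 17 were higher and 10 lower, beside 7341 (36.7%) and 3328 (16.7%) among the 19986. The length of a gene is the same in every library and cancels in its log2 change. Besides the set of genes kept, what differs in TPM is the scale of each library, which raises the Upf2cKO values. The median of the 5 eIF2B genes, for example, was 0.636 in CPM and 0.698 in TPM.

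**Figure D1:**
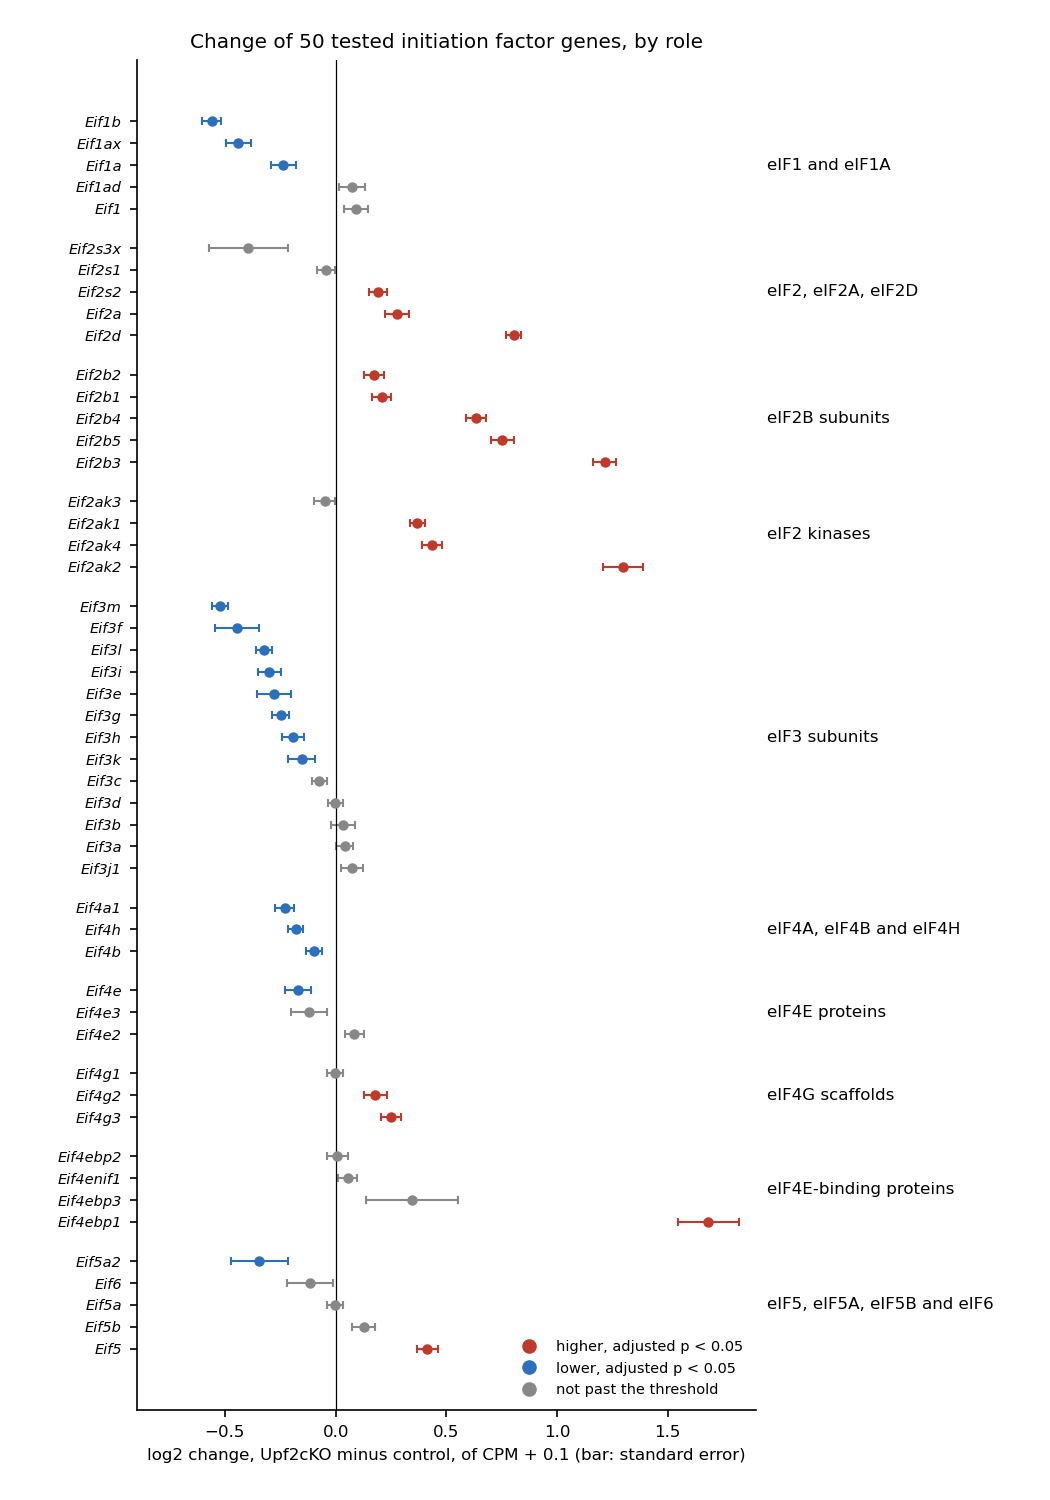
Log2 change (Upf2cKO minus control, of CPM + 0.1) of 50 tested initiation genes by role, with the Y-linked Eif2s3y left out; points are limma estimates from 4 against 4 libraries and bars their standard errors, red for higher and blue for lower at an adjusted p under 0.05. The eIF2B and kinase genes lie to the right of 0 with the exception of Eif2ak3, and the eIF3 genes lie on the left of it or close to it.

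The 4 eIF2 kinases answer to different stresses, and 3 of them were more abundant in Upf2cKO cortex. Eif2ak2 encodes PKR, which senses double-stranded RNA and is itself induced by interferon. It stood at 5.87, 5.52, 4.45 and 5.51 CPM across control replicates 1 to 4, against 12.8, 12.6, 13.35 and 14.2 CPM across Upf2cKO replicates 1 to 4. Every Upf2cKO library lay above every control, and the log2 change of 1.30 ± 0.09 (SE), a 2.46-fold rise, was past the threshold (adjusted p = 5.28e-07). Eif2ak4 encodes GCN2, which senses uncharged tRNA during amino acid shortage. It measured 32.1, 32.6, 33.6 and 32.9 CPM across control replicates 1 to 4, against 42.75, 47.0, 45.7 and 42.2 CPM across Upf2cKO replicates 1 to 4. This was a 1.35-fold rise without overlap of the groups (log2 change 0.44 ± 0.046, adjusted p = 1.42e-05). Eif2ak1 encodes HRI, known from red cell precursors as the kinase activated by lack of haem. It stood at 60.2, 61.9, 61.1 and 60.0 CPM across control replicates 1 to 4, against 77.8, 77.8, 78.5 and 80.5 CPM across Upf2cKO replicates 1 to 4. The rise was 1.29-fold (log2 change 0.37 ± 0.034, adjusted p = 4.24e-06), and the SDs were 0.861 CPM in controls and 1.29 CPM in Upf2cKO libraries. Erythroid markers moved the other way in the same libraries: all 5 of 9 that could be tested, the globins and Alas2, were lower and none of the 9 was at 0 in a group mean. Their part in the level of Eif2ak1 was not tested.

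Eif2ak3, which encodes PERK, the kinase of the endoplasmic reticulum that responds to unfolded proteins, did not pass the threshold. It measured 34.5, 36.9, 37.4 and 35.3 CPM across control replicates 1 to 4, against 33.55, 36.8, 34.2 and 34.5 CPM across Upf2cKO replicates 1 to 4. The groups overlapped, and the log2 change was -0.05 ± 0.047 (adjusted p = 0.371); its sign depended on the scale, with 0.011 in TPM and -0.14 after upper-quartile scaling, where it passed the threshold as lower (adjusted p = 0.0319). The share of PERK in the summed kinase mRNA, in TPM, was 27.0% ± 0.65 in controls and 20.5% ± 0.6 in Upf2cKO libraries (SD, n = 4), with no overlap. The share of PKR was 4.72% ± 0.59 and 9.18% ± 0.47, also with no overlap. HRI made up the largest share in every library, 48.4% ± 0.26 and 49.2% ± 0.96, and GCN2 held 19.9% ± 0.34 and 21.1% ± 0.93, with overlapping groups for both.

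**Figure D2:**
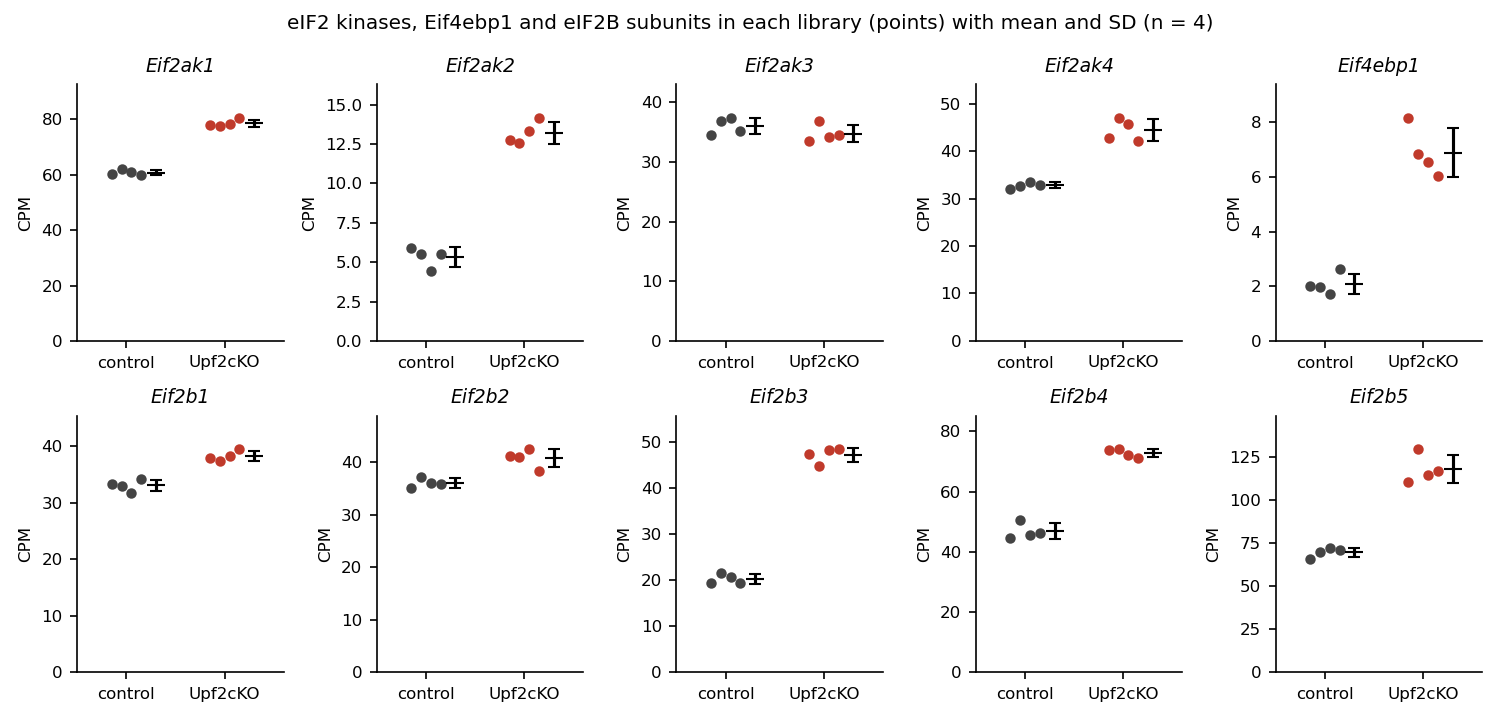
CPM in each library (points) of the 4 eIF2 kinases, Eif4ebp1 and the 5 eIF2B subunits, with the mean and SD of each group (n = 4, bars at the side); each axis starts at 0. The groups are apart in every panel but that of Eif2ak3.

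The stretch of Eif2ak2 around its start is shown because it holds a match to GAAA, any 2 bases and GAAA again, the core of the element through which interferon-activated factors bind DNA, a motif searched for after the values were seen. The match starts at base 19 of the transcript and is in capitals, with 10 bases on each side, at chr17:78882535-78882564 on the minus strand (RefSeq, build GRCm38.p6).
Eif2ak2: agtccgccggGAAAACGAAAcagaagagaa
Of the 54 genes, 42 had an entry among the RefSeq windows, which run from 250 bases before to 50 bases after a start, and 4 of them (9.52%) held this pattern on either strand, where 3.99% of 27025 genes did. The other matches were in Eif2s1, Eif3a and Eif2s3x, none of which passed the threshold. Over all tested genes with a window, 3.1% of those higher, 3.27% of those lower and 4.0% of the rest held the pattern. Beside the rise of Eif2ak2, of 9 tested genes from a list of 13 interferon-response genes 5 were higher and 1 was lower, with a median log2 change of 0.55. Irf9 and Stat2, which together carry the type I interferon signal to DNA, went from 17.6 to 44.3 CPM (log2 change 1.33 ± 0.058, adjusted p = 1.69e-08) and from 34.2 to 60.35 CPM (0.82 ± 0.043, adjusted p = 5.85e-08). Ddx58, which encodes the RNA sensor RIG-I, was lower, from 3.76 to 3.11 CPM (-0.27 ± 0.093, adjusted p = 0.0274), and 4 genes that interferon induces strongly, Ifit1, Ifit3, Oas1a and Mx1, were too low to test in both groups, with no mean above 0.61 CPM. Microglial markers moved with Eif2ak2, with 7 of 9 higher, P2ry12 and Tmem119 not past the threshold and none at 0 in a group mean. Their part in the level of Eif2ak2 was not tested.

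All 5 subunits of eIF2B were higher in Upf2cKO cortex, with a median log2 change of 0.64 and no overlap between the groups for any of them. The largest rise was that of Eif2b3, the gamma subunit, which with the epsilon subunit forms the catalytic part of the complex. Eif2b3 (chr4:117019402-117087306, plus strand) stood at 19.4, 21.6, 20.7 and 19.4 CPM across control replicates 1 to 4, against 47.3, 44.9, 48.2 and 48.4 CPM across Upf2cKO replicates 1 to 4. The rise was 2.32-fold (log2 change 1.22 ± 0.051, adjusted p = 1.24e-08), the next largest among the initiation genes tested on the autosomes and the X chromosome after Eif4ebp1 and Eif2ak2. Eif2b5, the epsilon subunit that carries out the exchange of nucleotide, measured 66.1, 70.2, 72.15 and 71.3 CPM across control replicates 1 to 4, against 111, 129.6, 115 and 117 CPM across Upf2cKO replicates 1 to 4. Its Upf2cKO libraries were all above the controls, with Upf2cKO 2 the highest (log2 change 0.75 ± 0.052, adjusted p = 5.25e-07). Eif2b4, the delta subunit, went from 46.8 ± 2.61 to 72.8 ± 1.38 CPM (log2 change 0.64 ± 0.045, adjusted p = 6.36e-07). The alpha and beta subunits, which with delta form the regulatory core that phosphorylated eIF2 binds, rose less. Eif2b1, alpha, went from 33.1 ± 1.02 to 38.2 ± 0.881 CPM (0.21 ± 0.042, adjusted p = 0.00128). Eif2b2, beta, went from 36.1 ± 0.892 to 40.7 ± 1.74 CPM (0.18 ± 0.045, adjusted p = 0.00572), and this call did not hold with upper-quartile scaling (adjusted p = 0.115). In TPM, where genes can be set side by side, the subunits ranged from 12.3 ± 0.673 TPM in controls and 29.9 ± 1.28 TPM in Upf2cKO libraries for Eif2b3 to 107 ± 3.82 TPM in controls and 188 ± 12.2 TPM in Upf2cKO libraries for Eif2b5. The ratio of the most to the least abundant subunit went from 8.70 to 6.29, and Eif2b3 remained the least abundant in both groups.

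Among the carriers of the initiator tRNA, 3 of 6 genes were higher and none was lower. Eif2s2, the beta subunit of eIF2, stood at 171, 162, 168 and 159 CPM across control replicates 1 to 4, against 181, 187, 187 and 197 CPM across Upf2cKO replicates 1 to 4. The rise was small, 1.14-fold, but the groups did not overlap (log2 change 0.19 ± 0.04, adjusted p = 0.00173). Eif2s1, the alpha subunit that the kinases phosphorylate, went from 95.9 ± 2.72 to 93.05 ± 3.37 CPM with overlapping groups (-0.04 ± 0.04, adjusted p = 0.349). So the substrate of the kinases did not pass the threshold while 3 kinases and all exchange factor subunits did, although after upper-quartile scaling Eif2s1 passed it as lower (log2 change -0.13, adjusted p = 0.0137), and in TPM its change was 0.017. The factors eIF2A and eIF2D can deliver tRNA to the ribosome independently of eIF2. Eif2d measured 36.7, 37.1, 36.9 and 36.5 CPM across control replicates 1 to 4, against 62.9, 66.2, 64.25 and 64.0 CPM across Upf2cKO replicates 1 to 4. Its libraries were close together in each group and far apart between them, a 1.75-fold rise (log2 change 0.80 ± 0.036, adjusted p = 1.91e-08). Eif2a rose from 65.7 ± 2.04 to 79.7 ± 5.91 CPM (0.28 ± 0.054, adjusted p = 0.00107).

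The gamma subunit of eIF2, which binds the initiator tRNA, has an X-linked and a Y-linked gene, Eif2s3x and Eif2s3y, and the libraries differed in whether they held Y-linked reads. The labels do not give the sex of the embryos. The summed level of 3 other Y-linked genes, Ddx3y, Uty and Kdm5d, reached 152 CPM in control 1 and 136 CPM in control 4 but 0.18 and 0.19 CPM in controls 2 and 3, and it reached 284, 299 and 325 CPM in Upf2cKO 1, 2 and 4 but 0.08 CPM in Upf2cKO 3, so that reads from the Y chromosome were present in 2 controls and 3 Upf2cKO libraries. Eif2s3y stood at 85.8, 0.05, 0.10 and 78.2 CPM across control replicates 1 to 4, against 77.6, 73.2, 0.03 and 99.5 CPM across Upf2cKO replicates 1 to 4. It was near 0 in the same 3 libraries, and its difference between the groups (log2 change 2.13 ± 2.638, adjusted p = 0.502) follows that split and is not read as an effect of the genotype. Eif2s3x measured 128, 198, 196 and 129.8 CPM across control replicates 1 to 4, against 108, 107, 166 and 113 CPM across Upf2cKO replicates 1 to 4. It was highest in the 3 libraries without Y-linked reads, and the groups overlapped (log2 change -0.39 ± 0.18, adjusted p = 0.0782). It passed the threshold as lower with median-of-ratios (-0.45, adjusted p = 0.0488) and upper-quartile scaling (-0.48, adjusted p = 0.0365), and when control 1, control 4 or Upf2cKO 3 was left out (adjusted p down to 0.0144). Leaving out any of these libraries also widened the difference between the groups in the share of libraries with Y-linked reads.

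Within the libraries that held Y-linked reads, Eif2s3x averaged 129 CPM in 2 controls and 109 CPM in 3 Upf2cKO libraries, and Eif2s3y 82.0 and 83.4 CPM. Without Y-linked reads, Eif2s3x averaged 197 CPM in 2 controls and was 166 CPM in the 1 Upf2cKO library. The X-linked gene was thus lower in Upf2cKO on both sides of the split. With the Y-linked level as a covariate the log2 change of Eif2s3x was -0.22 (adjusted p = 0.00158), and among the libraries with Y-linked reads alone, a comparison added after the data were seen, it was -0.24 (adjusted p = 0.0157). That covariate was itself higher in Upf2cKO libraries than in controls among those with Y-linked reads. Both genes together summed to 204 ± 8.19 CPM in controls and 186 ± 19.4 CPM in Upf2cKO libraries (SD, n = 4), from 196 to 214 CPM and from 166 to 212 CPM. Reads that match both genes equally well may have been split or dropped, since no source used here gives the counting rule.

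**Figure D3:**
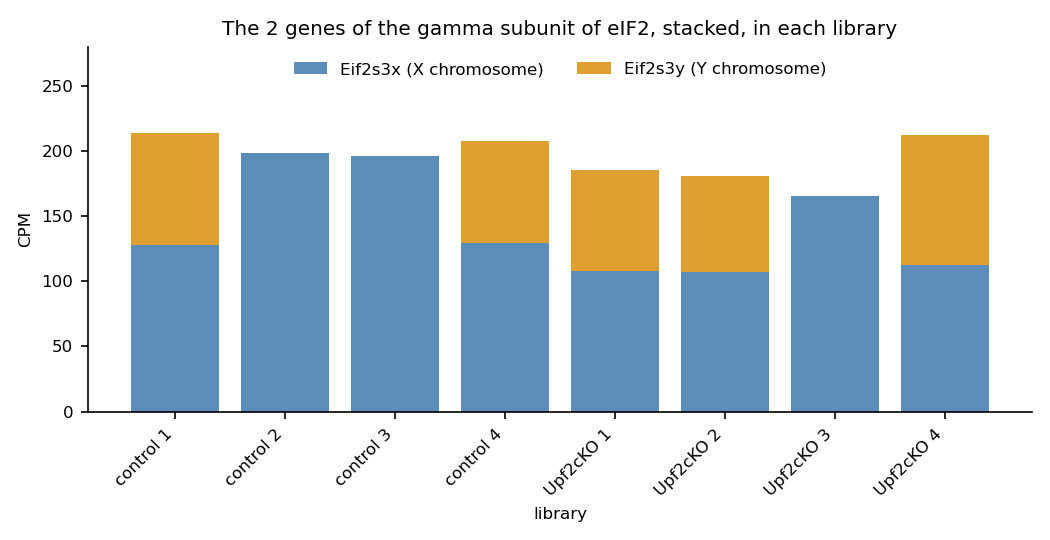
CPM of Eif2s3x and Eif2s3y stacked for each library; the axis starts at 0. Control 2, control 3 and Upf2cKO 3 show Eif2s3x alone, at 198, 196 and 166 CPM, and in the 5 others Eif2s3y adds 73.2 to 99.5 CPM.

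Among the genes whose symbols start with Eif1, 3 of 5 were lower and none was higher. Eif1b, a close relative of Eif1, whose protein keeps the scanning complex open until the start codon is met, had the largest fall of the 51 genes tested. It stood at 163, 155, 151 and 160.3 CPM across control replicates 1 to 4, against 103, 103, 113 and 108 CPM across Upf2cKO replicates 1 to 4. The fall was 1.47-fold without overlap (log2 change -0.56 ± 0.043, adjusted p = 1.26e-06). Of its exonic length, 12.7% is covered by an antisense gene, whose reads cannot be told apart without the strand setting. Eif1 itself went from 210.2 ± 11.1 to 224 ± 15.5 CPM with overlapping groups (0.09 ± 0.056, adjusted p = 0.173). In TPM the order of the relatives changed, with Eif1b at 554 ± 17.8 TPM in controls and 393 ± 23.1 TPM in Upf2cKO libraries and Eif1 at 397 ± 22.5 TPM in controls and 442 ± 33.0 TPM in Upf2cKO libraries.

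Eif1ax and Eif1a encode eIF1A, which works with eIF1 on the small subunit. Eif1ax (chrX:159372178-159389928, plus strand) measured 274, 259.7, 248 and 249 CPM across control replicates 1 to 4, against 200.3, 172, 185 and 202 CPM across Upf2cKO replicates 1 to 4. Every Upf2cKO library was below every control, a 1.36-fold fall (log2 change -0.44 ± 0.057, adjusted p = 6.07e-05). Eif1a fell from 56.2 ± 2.45 to 47.8 ± 3.69 CPM (-0.24 ± 0.058, adjusted p = 0.0048). The coding sequences of Eif1a and Eif1ax are nearly identical, so reads may have passed between them, and both fell. Eif1ad, which shares a domain with eIF1A, went from 23.9 ± 1.62 to 25.15 ± 0.826 CPM (0.07 ± 0.058, adjusted p = 0.285).

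The scaffold complex eIF3 has 13 subunits, of which a, c, e, f, h, k, l and m form an octamer and b, d, g, i and j attach to it. Of 13 tested genes, 8 were lower, 5 did not pass the threshold and none was higher, with a median log2 change of -0.19. In the octamer 6 of 8 were lower (median -0.24), and of the genes outside it 2 of 5 (median -0.001). Eif3m fell most. It stood at 87.7, 86.7, 89.2 and 89.5 CPM across control replicates 1 to 4, against 62.3, 60.2, 60.1 and 63.0 CPM across Upf2cKO replicates 1 to 4. The groups lay far apart (log2 change -0.52 ± 0.035, adjusted p = 3.94e-07), a 1.44-fold fall. Eif3f went from 155 ± 16.5 to 114 ± 15.3 CPM, with wide spread in both groups and control 1 barely above Upf2cKO 2, at 134 against 133 CPM (-0.45 ± 0.099, adjusted p = 0.00256).

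Eif3l fell from 162 ± 6.05 to 129.6 ± 1.62 CPM (-0.32 ± 0.037, adjusted p = 2.29e-05). Eif3i and Eif3g, which sit with eIF3b near the mRNA channel, fell by 0.30 and 0.25 on the log2 scale (adjusted p = 0.000465 and 0.000282). Eif3e, Eif3h and Eif3k fell by 0.28, 0.19 and 0.15 (adjusted p = 0.00858, 0.00708 and 0.0495). The groups of Eif3e overlapped, since Upf2cKO 4 at 171 CPM lay among the controls, and so did those of Eif3k. The call of Eif3k was lost when any of 5 libraries was left out (controls 2 and 4, Upf2cKO 2, 3 and 4), with adjusted p up to 0.143, and those of Eif3e and Eif3h were lost in TPM.

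Eif3a, the largest subunit, whose gene took the most reads of the 13, did not pass the threshold. It measured 416, 392, 413 and 402 CPM across control replicates 1 to 4, against 400.3, 419.7, 417 and 434 CPM across Upf2cKO replicates 1 to 4. The groups overlapped (log2 change 0.04 ± 0.039, adjusted p = 0.384), and the sign turned to -0.015 with median-of-ratios scaling and -0.045 with upper-quartile scaling. Eif3b, which holds the outer module together, went from 168 ± 12.1 to 172 ± 7.28 CPM (0.03 ± 0.055, adjusted p = 0.61; -0.021 and -0.052 with the same 2 scalings). Eif3c went from 330.2 ± 4.32 to 314 ± 6.48 CPM with no overlap between the groups, but the change of -0.07 ± 0.033 did not pass the threshold (adjusted p = 0.0758), which it did with the 2 other scalings. Eif3d, which can bind the cap of some mRNAs, went from 70.0 ± 0.93 to 69.9 ± 1.69 CPM, and Eif3j1 went from 56.1 ± 1.29 to 59.2 ± 3.83 CPM (adjusted p = 0.98 and 0.206). Of the exonic length of Eif3d, 43.3% is also covered by an antisense gene, so its value is uncertain to that extent. Per length, Eif3h was the most abundant subunit, at 621 ± 31.4 TPM in controls and 566 ± 29.3 TPM in Upf2cKO libraries, and Eif3j1 the least, with means of 38.1 and 42.0 TPM. The copy Eif3j2 was not tested, at 0.28 and 0.36 CPM.

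**Figure D4:**
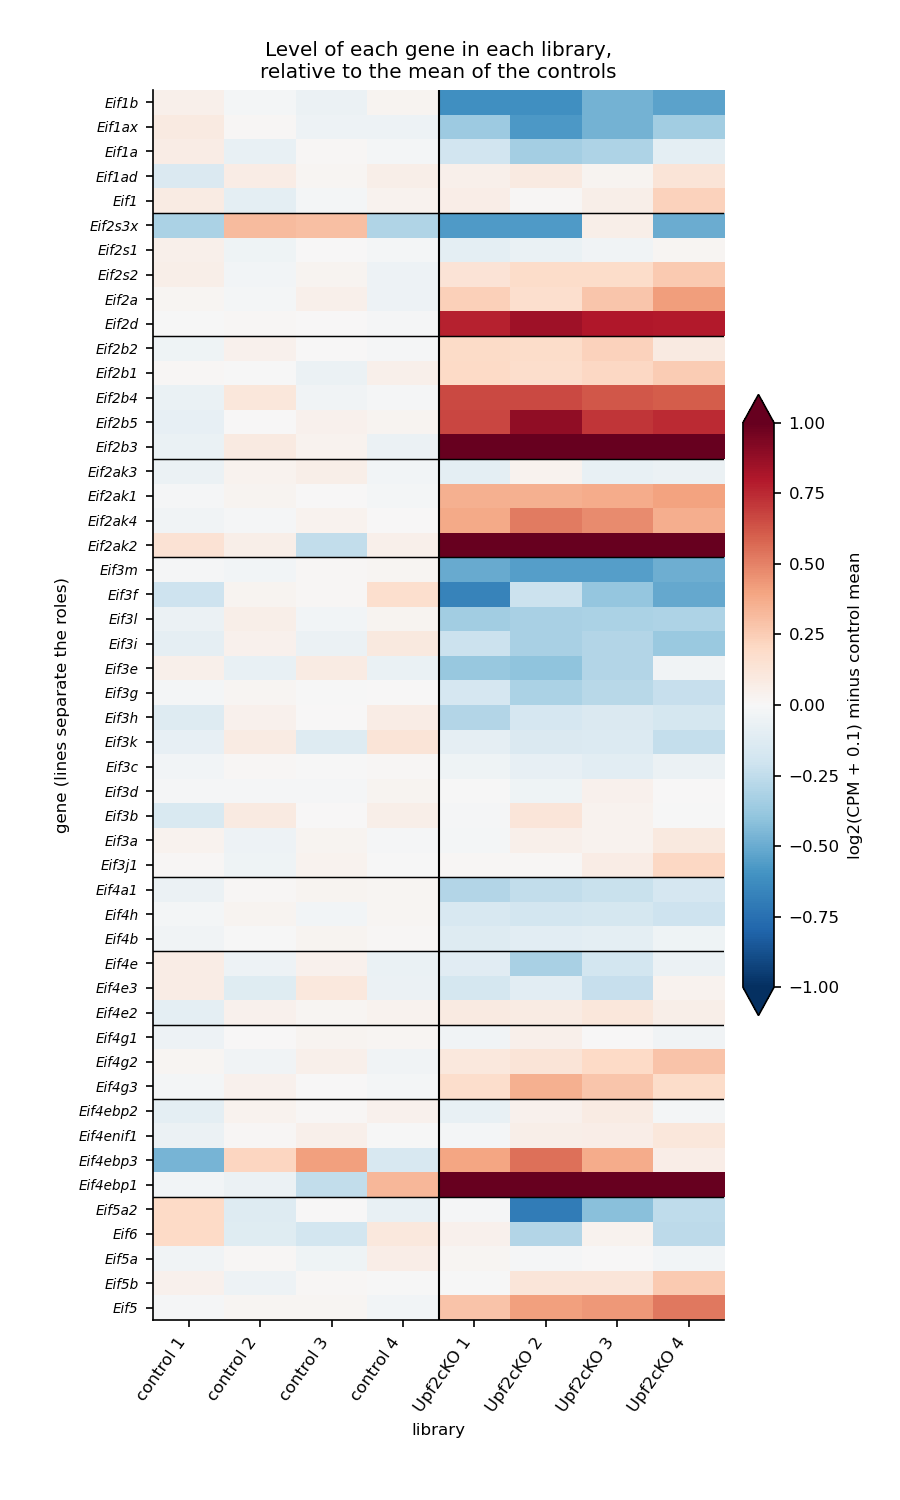
Log2(CPM + 0.1) of 50 tested initiation genes in each library minus the control mean of that gene, in the order of the roles with lines between them; red is higher, blue lower, and the colour scale ends at 1 in each direction. The Upf2cKO columns are red throughout for eIF2B and blue for most of eIF3, while Eif2s3x follows the libraries with Y-linked reads.

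The cap-binding complex eIF4F joins the cap-binding protein eIF4E, the helicase eIF4A and the scaffold eIF4G. Of its helicase side only Eif4a1 and the cofactor genes Eif4b and Eif4h are described, since the helicase gene Eif4a2 was left out. These genes all fell, with a median log2 change of -0.18. Eif4a1, the most abundant of them, stood at 848, 894, 903 and 896 CPM across control replicates 1 to 4, against 723, 745, 759 and 789.9 CPM across Upf2cKO replicates 1 to 4. Control 1 lay below the other controls and still above every Upf2cKO library (log2 change -0.23 ± 0.042, adjusted p = 0.000723). Eif4h went from 375 ± 7.19 to 330.4 ± 4.42 CPM (-0.18 ± 0.033, adjusted p = 0.000722). Eif4b went from 407 ± 8.31 to 381 ± 9.49 CPM (-0.10 ± 0.036, adjusted p = 0.037), a small change whose call was lost in TPM (adjusted p = 0.44) and when any of 6 libraries was left out (controls 2, 3 and 4, Upf2cKO 1, 2 and 3), with adjusted p up to 0.0955. The exons of Eif4a1 hold 2 snoRNA genes, which cover 3.30% and 3.32% of its length.

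Eif4e, the cap-binding protein, measured 175, 161, 172 and 159.7 CPM across control replicates 1 to 4, against 154, 133, 147 and 159.8 CPM across Upf2cKO replicates 1 to 4. The groups overlapped at Upf2cKO 4, and the fall of 1.13-fold (log2 change -0.17 ± 0.059, adjusted p = 0.026) did not pass the threshold in TPM or without control 1, control 3, Upf2cKO 2 or Upf2cKO 3 (adjusted p up to 0.0691). Eif4e2, a relative that binds the cap without recruiting eIF4G and represses translation, went from 92.8 ± 4.29 to 98.4 ± 1.43 CPM with no overlap (0.09 ± 0.041, adjusted p = 0.0919). In TPM it passed the threshold as higher (0.15, adjusted p = 0.0112), and with upper-quartile scaling the change was -0.001. Its share of the summed TPM of Eif4e, Eif4e2 and Eif4e3 was 28.5% ± 1.8 in controls and 32.1% ± 1.8 in Upf2cKO libraries, and that of Eif4e 63.8% ± 1.5 and 60.3% ± 1.9. Neither share overlapped between the groups. Eif4e3 went from 8.40 ± 0.623 to 7.72 ± 0.629 CPM (adjusted p = 0.224) and passed the threshold as lower with upper-quartile scaling (log2 change -0.20, adjusted p = 0.044), and the oocyte form Eif4e1b was listed at no more than 0.01 CPM in any library.

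The scaffolds moved the other way, with 2 of 3 higher. Eif4g2 encodes DAP5, which lacks the eIF4E-binding part and serves cap-independent initiation. It took the most reads of all initiation genes, 1781, 1716, 1814 and 1713 CPM across control replicates 1 to 4, against 1885, 1918, 2019.6 and 2141 CPM across Upf2cKO replicates 1 to 4. All Upf2cKO libraries exceeded the controls (log2 change 0.18 ± 0.052, adjusted p = 0.0117), but the call was lost with median-of-ratios (adjusted p = 0.0793) and upper-quartile scaling (0.148). Eif4g3 stood at 291, 304, 296 and 292 CPM across control replicates 1 to 4, against 334, 379, 358 and 336 CPM across Upf2cKO replicates 1 to 4. The groups did not overlap (log2 change 0.25 ± 0.046, adjusted p = 0.000757). Eif4g1, the main scaffold of eIF4F, went from 464 ± 10.9 to 463 ± 13.3 CPM (adjusted p = 0.935), a change of -0.004 whose sign differed between scales.

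The eIF4E-binding proteins hold eIF4E away from eIF4G until the kinase mTOR phosphorylates them. Eif4ebp1, which is also a transcriptional target of ATF4 in other tissues, rose most of all initiation genes outside the Y chromosome. It stood at 2.02, 1.98, 1.72 and 2.62 CPM across control replicates 1 to 4, against 8.16, 6.83, 6.55 and 6.03 CPM across Upf2cKO replicates 1 to 4. The lowest Upf2cKO library was above the highest control, and the rise was 3.21-fold (log2 change 1.69 ± 0.136, adjusted p = 1.61e-06). Per length its level was low, at 3.76 ± 0.642 TPM in controls and 13.0 ± 1.61 TPM in Upf2cKO libraries, beside that of Eif4ebp2, the form that prevails in the brain, at 161 ± 6.13 TPM in controls and 169 ± 9.27 TPM in Upf2cKO libraries. Eif4ebp2 measured 219.6, 241, 238 and 243 CPM across control replicates 1 to 4, against 223, 242, 249 and 232 CPM across Upf2cKO replicates 1 to 4. The groups of Eif4ebp2 overlapped (log2 change 0.007 ± 0.047, adjusted p = 0.912; -0.049 and -0.080 with median-of-ratios and upper-quartile scaling). Of the summed TPM of the 3 genes, Eif4ebp1 held 2.25% ± 0.38 in controls and 7.03% ± 1.1 in Upf2cKO libraries, and Eif4ebp2 96.4% ± 0.23 and 91.3% ± 1.2. Eif4ebp3, at 0.44 and 0.57 CPM, lay near the filter and did not pass the threshold (adjusted p = 0.17), and 67.3% of its exonic length is shared with another gene on the same strand. Eif4enif1, which carries eIF4E into the nucleus and represses bound mRNAs, went from 75.2 ± 2.35 to 78.1 ± 3.1 CPM (adjusted p = 0.283; -0.032 with upper-quartile scaling).

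Of the factors that act at and after the start codon, 1 of 5 was higher and 1 was lower. Eif5, which makes eIF2 hydrolyse its GTP when the start codon is found, stood at 278, 285, 284 and 276 CPM across control replicates 1 to 4, against 343, 373, 379.9 and 404 CPM across Upf2cKO replicates 1 to 4. Each Upf2cKO library exceeded each control, a 1.33-fold rise (log2 change 0.42 ± 0.049, adjusted p = 2.92e-05). Eif5a2, the less abundant gene of the hypusine-bearing factor eIF5A, measured 22.3, 17.7, 19.45 and 18.4 CPM across control replicates 1 to 4, against 19.2, 11.9, 14.5 and 16.3 CPM across Upf2cKO replicates 1 to 4. The groups overlapped, since Upf2cKO 1 lay within the controls, and the fall (log2 change -0.35 ± 0.13, adjusted p = 0.0391) did not pass the threshold when control 1, 3 or 4 or Upf2cKO 2 or 3 was left out (adjusted p up to 0.106), nor in TPM; without Upf2cKO 1 it was still past it (-0.46, adjusted p = 0.00302).

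Eif5a, the main gene, went from 309.7 to 309 CPM (adjusted p = 0.958; log2 change -0.002, and 0.059 in TPM). Eif5b, the GTPase that joins the subunits, went from 158 ± 4.42 to 173 ± 13.2 CPM (0.13 ± 0.053, adjusted p = 0.0609), and passed the threshold as higher in TPM (0.19, adjusted p = 0.0253) and without Upf2cKO 1 (adjusted p = 0.00893). Eif6, which keeps free large subunits from joining, went from 55.1 ± 6.95 to 50.8 ± 6.49 CPM with wide overlap (adjusted p = 0.345). Eif2c5, a further row that the symbol rule takes, was at 0 in every library, and its role is not described here. Other genes on the opposite strand cover 16.8% of the exonic length of Eif5b, 19.0% of that of Eif3j1, 15.3% of that of Eif1ad, 8.59% and 3.03% of that of Eif2ak1 (by Aimp2 and Ankrd61), 8.05% of that of Eif2ak3, 7.85% of that of Eif2b4 and 5.11% of that of Eif6, and a gene on the same strand covers 14.8% of that of Eif4e3. Processed copies of Eif4a1 and Eif5a in the genome can share their reads. These values are uncertain to that extent.

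**Figure D5:**
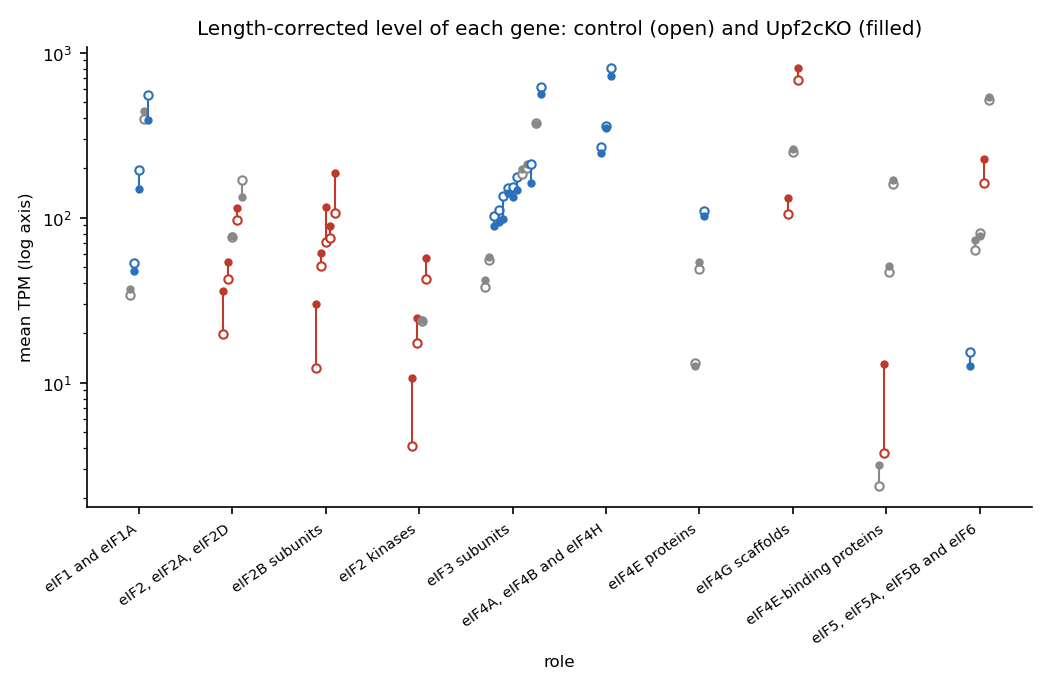
Mean TPM of 50 tested initiation genes in controls (open circles) and Upf2cKO libraries (filled circles), by role, on a log axis; red genes were higher and blue genes lower in the test on CPM, and grey genes did not pass the threshold. Eif4a1 in controls (809 TPM) and Eif4g2 in Upf2cKO libraries (810 TPM) lie at the top, and Eif4ebp3, Eif4ebp1 and Eif2ak2 at the bottom, the last 2 with the longest lines beside Eif2b3.

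Since UPF2 acts in NMD, annotated NMD transcripts were counted. Of the 51 tested genes, 9 have a transcript annotated as NMD-sensitive in GENCODE M21 (17.6%), beside 27.7% of 14024 protein-coding genes tested. Of these 9, 4 were higher and 2 lower, with a median log2 change of -0.004, and of the 42 without one 11 were higher and 14 lower, with a median of 0.02. The genes with such a transcript also have more annotated transcripts, a median of 7 against 4. Among initiation genes with 5 to 20 annotated transcripts the order of the medians turned. Of 7 with an NMD transcript 4 were higher and 2 lower (median 0.21). Of 20 without one 7 were higher and 4 lower (median 0.089). Over all protein-coding genes, those with such a transcript held 47.9% higher and 21.3% lower (median 0.14), and those without 31.7% and 31.3% (median -0.018). A gene's CPM sums over its transcripts, so which of them changed was not measured.

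The windows of 3 genes that were lower, Eif1b, Eif3f and Eif4e, are shown because they hold the letters CACGTG, the E-box that MYC and its relatives bind, a motif that was searched for after the values were seen. The 250 bases before the RefSeq start are printed, 5′ to 3′ with the matches in capitals, from build GRCm38.p6. They lie at chr9:120492356-120492605 on the plus strand, chr7:108934165-108934414 on the plus strand and chr3:138527018-138527267 on the plus strand. In GENCODE M21, Eif1b starts at base 120492232 and Eif4e at base 138526179, so these windows lie inside the genes annotated there. The window of Eif3f lies before its GENCODE start at base 108934417.
Eif1b: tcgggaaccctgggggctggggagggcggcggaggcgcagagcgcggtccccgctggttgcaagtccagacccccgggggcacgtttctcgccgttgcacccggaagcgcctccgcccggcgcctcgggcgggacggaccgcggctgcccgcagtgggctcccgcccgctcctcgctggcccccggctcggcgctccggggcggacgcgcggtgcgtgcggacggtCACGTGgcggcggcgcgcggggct
Eif3f: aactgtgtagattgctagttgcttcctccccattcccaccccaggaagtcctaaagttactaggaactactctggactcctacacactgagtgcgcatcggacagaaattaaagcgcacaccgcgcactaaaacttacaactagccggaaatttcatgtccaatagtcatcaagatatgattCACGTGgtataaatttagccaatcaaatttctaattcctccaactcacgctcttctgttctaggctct
Eif4e: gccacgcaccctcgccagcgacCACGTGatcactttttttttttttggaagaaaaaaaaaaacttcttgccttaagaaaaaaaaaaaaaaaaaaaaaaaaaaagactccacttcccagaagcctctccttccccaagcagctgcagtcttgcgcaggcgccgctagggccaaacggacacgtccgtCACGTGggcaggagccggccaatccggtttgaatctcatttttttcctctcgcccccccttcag
The letters begin 24 bases before the RefSeq start of Eif1b, 68 before that of Eif3f, and 228 and 64 before that of Eif4e. CACGTG reads the same on both strands. It occurred in 10 of the 42 initiation genes with a window (23.8%), beside 8.09% of 27025 genes. Of the 12 genes that were lower and have a window, 7 held it (Eif1b, Eif3f, Eif3k, Eif4a1, Eif4e, Eif4h and Eif5a2), of the 12 that were higher none did, and of the 17 that did not pass the threshold 3 did (Eif3a, Eif4g1 and Eif5a). The lower calls of Eif3k, Eif4e and Eif5a2 were lost in 12, 8 and 10 of 20 alternative runs, and that of Eif4a1 in 1. Eif1b, Eif3f and Eif4h kept theirs in every run. Over all tested genes the share was 11.1% of those higher, 10.6% of those lower and 11.9% of the rest. TGATGNAA, the letters of the element that ATF4 binds with its partners, occurred in 1 of the 42, Eif2s3x, on the minus strand 96 bases before the start (2.38%, beside 4.51% of all genes). A match describes letters in a window and not a bound site.

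Beyond the initiation factors, 52 genes that act on or beside them were listed, all of which could be tested. Of these, 19 were higher (36.5%) and 16 lower (30.8%), with a median log2 change of 0.028, close to the 36.7% higher, 26.3% lower and median of 0.04 over all tested genes. The counts in the lists that follow stand beside those same shares. In the list for the control of eIF2 and eIF2B, 4 of 12 were higher and 4 lower. Ppp1r15a encodes GADD34, which leads a phosphatase to eIF2 and reverses the kinases. It went from 12.8 ± 1.06 to 23.8 ± 1.08 CPM (log2 change 0.89 ± 0.068, adjusted p = 1.12e-06). Gcn1, listed in the files as Gcn1l1, encodes the ribosome-bound activator of GCN2 and went from 127.5 ± 4.95 to 181.5 ± 17.4 CPM (0.51 ± 0.066, adjusted p = 6.2e-05). Mcts1, which with DENR removes tRNA from the small subunit, and Bzw2, a mimic of eIF5, fell by 0.36 and 0.28 on the log2 scale (adjusted p = 0.000111 and 0.000544).

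Of 22 genes that act at the cap, 9 were higher and 3 lower. The higher genes with the smallest adjusted p were Rps6kb2, an S6 kinase downstream of mTOR, from 23.0 ± 0.716 to 53.9 ± 1.79 CPM (1.23 ± 0.044, adjusted p = 4.59e-09), and Angel1, an eIF4E-binding protein, from 8.26 ± 0.3 to 21.05 ± 1.04 CPM (1.34 ± 0.059, adjusted p = 1.7e-08). Pabpc1, the poly(A)-binding protein that ties the tail to eIF4G, fell from 375 ± 7.18 to 251.5 ± 14.8 CPM (-0.58 ± 0.045, adjusted p = 1.26e-06). Fmr1, the repressor that holds the CYFIP1 and eIF4E complex on mRNAs, fell by 0.37 (adjusted p = 0.00117). Of the exonic length of Rps6kb2, 23.7% is covered by Ptprcap on the other strand, and of that of Mlst8, described next, 22.5% by Bricd5.

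In the mTOR list, 4 of 8 were higher and 2 lower. Mtor itself went from 95.45 ± 1.58 to 179 ± 12.4 CPM (0.91 ± 0.05, adjusted p = 8.99e-08), and Mlst8, a subunit of both mTOR complexes, from 26.5 ± 0.682 to 42.6 ± 1.64 CPM (0.68 ± 0.044, adjusted p = 3.05e-07). Rheb, the GTPase that activates mTOR, fell by 0.20 (adjusted p = 0.00124) and Akt1 by 0.13 (adjusted p = 0.0294). Of 10 genes of elongation and hypusine synthesis, 2 were higher and 7 lower. Those higher were Dhps, which makes the hypusine of eIF5A, from 33.0 ± 1.44 to 64.2 ± 1.65 CPM (0.96 ± 0.044, adjusted p = 2.23e-08), and Eef2k, the inhibitory kinase of eEF2, from 97.5 ± 4.72 to 141 ± 6.5 CPM (0.54 ± 0.047, adjusted p = 3.27e-06). Among those lower, Eef1a1 went from 7167 ± 317 to 5271 ± 65.7 CPM (-0.44 ± 0.056, adjusted p = 5.37e-05) and Eef1g from 543 ± 21.8 to 429 ± 15.9 CPM (-0.34 ± 0.044, adjusted p = 5.38e-05).

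Atf4, whose mRNA is translated more when eIF2 is phosphorylated, and genes that act with or under its product in that stress response were measured beside the kinases. Of 11 tested, Atf4 included, 8 were higher and 1 lower, with a median log2 change of 1.74. Atf4 went from 121 ± 3.41 to 496 ± 20.1 CPM (adjusted p = 1.62e-10) and Ddit3, which encodes the stress factor CHOP, from 8.435 ± 0.465 to 33.4 ± 0.524 CPM (adjusted p = 1.11e-09). Ddit4, an inhibitor of mTOR, was lower, from 112 ± 7.81 to 81.0 ± 3.26 CPM (-0.47 ± 0.053, adjusted p = 2.08e-05). The phosphorylation of eIF2 and the rate of translation were not measured.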

How the data were processed

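Cortex RNA of mouse embryos at E18.5 was sequenced in 4 control and 4 Upf2cKO libraries on a NovaSeq X Plus, with RNA integrity numbers of at least 9. Per the labels' protocols a stranded total RNA kit was used, while the same text describes purified mRNA, so how RNA was selected stays unclear. Of tools and builds, the submitters' processing notes list mm10, DESeq2, MultiQC 1.25, Picard 3.1.1, STAR 2.7.11a and fastp 0.23.4. For the counting tool, its strand setting and annotation: not given in the sources used here.

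Deposited by the authors were CPM (counts of reads, scaled so that every library has the same sum) and TPM (the same corrected for gene length) for 55487 rows, rounded to 2 decimals. In these units many genes rising will push the others down. The depth per library was read from the steps between 837 to 1049 low TPM values of genes of at most 200 bases, 100% of which came out whole within 0.15 reads. Lengths from GENCODE M21 fitted the ratio of TPM to CPM within 0.2% for at least 97.7% of genes. Since rounding hides single reads of longer genes, counts were not recovered and no count test was used.

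Samples were grouped by the labels. Genes that reached 0.5 CPM in 4 or more libraries entered the test on log2(CPM + 0.1), which understates changes of low genes, with limma 3.58.1 (R 4.3.3), an intensity trend, no covariate, a two-sided test and Benjamini-Hochberg adjustment over 16573 genes. Every p in the text is an adjusted p from limma, and the errors of log2 changes are standard errors, while those of CPM and TPM are SDs over 4 libraries. The procedure was tested on simulated data. The initiation genes, the gene and marker lists and their roles were chosen with earlier results of these data known. Values in every library are given for each kinase, for Eif2s3x and Eif2s3y, and in each role for the gene with the largest rise, the gene with the largest fall and the gene of highest mean CPM, and from each other list up to 2 genes in each direction are named. Eif3f, Eif2b1, Eif2b2 and the others were added so that all are accounted for. Coordinates are from GENCODE M21 on mm10 and promoter windows from RefSeq on GRCm38.p6. Alternatives were TPM, other pseudocounts and filters, other scalings, no trend, a Y-linked covariate, a replicate block and leaving out libraries. One gene of the cortical marker list is not reported here.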

Additional observations from a re-analysis of the deposited data

Results flagged for a closer look

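In 7 of 146 groups of 4 libraries examined, 4 of them among 102 groups of initiation genes, 1 library stood apart from the other 3 by Dixon's criterion at the 95% level, which chance alone meets in about 1 of 20 groups. Eif2s3x was 165.85 CPM in Upf2cKO 3, where the others lay between 107.46 and 112.85 CPM, and Upf2cKO 3 was the only Upf2cKO library without Y-linked reads. Eif3d was 71.37 CPM in control 4 (others 69.43 to 69.56 CPM), a gap of under 2 CPM. Control 1 was the lowest control for Eif4a1, at 848.34 CPM (others 893.67 to 902.89 CPM), for Eif4e2, at 86.45 CPM (94.27 to 95.45 CPM), and for Rps6kb2, at 21.91 CPM (23.25 to 23.43 CPM). Ddit4 was 124.05 CPM in control 4 (107.86 to 109.49 CPM). Mlst8 was 45.07 CPM in Upf2cKO 1 (41.55 to 42.12 CPM).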

How the results depend on the processing

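Of the 15 initiation genes that were higher, 11 kept that call in every alternative run (Eif2a, Eif2ak1, Eif2ak2, Eif2ak4, Eif2b3, Eif2b4, Eif2b5, Eif2d, Eif4ebp1, Eif4g3 and Eif5), and of the 16 lower 8 did (Eif1ax, Eif1b, Eif3f, Eif3g, Eif3i, Eif3l, Eif3m and Eif4h). With any 1 library left out, 15 to 16 were higher and 12 to 15 lower. In TPM, 10 initiation genes and 10 of the listed partners were lower, in place of 16 and 16. With the 5 libraries that hold Y-linked reads, chosen after seeing the data, 2651 genes in all, 10 initiation genes and 8 partners were lower, with fewer samples in the fit. With median-of-ratios scaling 5487 genes were higher and 5257 lower, and 14 and 18 of the initiation genes. Eif4g2 was not past the threshold without control 4 and Upf2cKO 4, the libraries with the most Ttr (adjusted p = 0.0657). The replicate numbers are not shown to pair the samples: deviations of same-numbered libraries correlated at 0.423, 0.0519, 0.523 and 0.186, and 2 of 4 correlated best with their own number. With a replicate block, 15 initiation genes were higher and 15 lower, Eif2s3x passed the threshold (adjusted p = 0.00821), and Eif3k and Eif4b no longer did (adjusted p = 0.0644 and 0.0619).

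Changes of sign were seen only for initiation genes not past the threshold in the reported test. Apart from gene length, TPM and the other scalings multiply all genes of a library by the same factor. They therefore move all log2 changes by nearly the same amount, and small changes can turn sign. The median over the tested initiation genes was 0.007 in the reported test and 0.081 in TPM, where 52 were tested. It was -0.049 with median-of-ratios and -0.08 with upper-quartile scaling. For the other runs the cause of a changed sign was not tested. In log2 units, TPM gave 0.011 for Eif2ak3, 0.017 for Eif2s1, 0.060 for Eif3d, 0.057 for Eif4g1 and 0.059 for Eif5a. Median-of-ratios scaling gave -0.015 for Eif3a, -0.021 for Eif3b, -0.049 for Eif4ebp2 and -0.001 for Eif4enif1. Upper-quartile scaling gave -0.011 for Eif1ad, -0.045 for Eif3a, -0.052 for Eif3b, -0.011 for Eif3j1, -0.001 for Eif4e2, -0.080 for Eif4ebp2 and -0.032 for Eif4enif1. The Y-linked covariate gave -0.546 for Eif2s3y (adjusted p = 0.0481), 0.003 for Eif3d and 0.002 for Eif4g1. Libraries with Y-linked reads alone gave 0.003 for Eif2ak3 and 0.009 for Eif4g1. Without control 4 and Upf2cKO 4 the values were 0.006 for Eif3d, 0.013 for Eif4g1 and 0.028 for Eif5a. Leaving out 1 library at a time moved Eif3b between -0.016 and 0.064, Eif3d between -0.015 and 0.014, Eif4ebp2 between -0.026 and 0.034, Eif4g1 between -0.022 and 0.007 and Eif5a between -0.016 and 0.020.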
